A study of Homo sapiens with 6 samples.

Results

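Ribosome biogenesis and nucleolar genes were examined in H660 cells in which MUC1-C was silenced. The set comprised 43 genes of the 28008 gene symbols in the deposited count table. Members were chosen by symbol for what their products do in the nucleolus. The rule used no measured value, although earlier results of these data were known when it was made. By role, the set held 3 abundant nucleolar scaffold proteins, 7 genes of RNA polymerase I and its partners, 8 proteins of small nucleolar ribonucleoproteins (snoRNPs), 10 small-subunit assembly factors and 15 large-subunit assembly factors.

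NCI-H660 (H660) is an established line of neuroendocrine prostate cancer (NEPC). All cells carried a tetracycline-inducible shRNA against MUC1, and RNA was profiled by RNA-seq in 3 libraries given 0.1% DMSO (DOX-negative) and 3 libraries given doxycycline at 500 ng/ml (DOX-positive), for 7 days per the study's methods. The comparison asks which transcripts differ when MUC1-C, the membrane-spanning subunit of mucin 1, is silenced. No DOX-treated libraries with a control shRNA were analysed here, so an effect of DOX itself and one of the shRNA cannot be told apart.

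Ribosomes are assembled in the nucleolus. RNA polymerase I transcribes the precursor of the large ribosomal RNAs, snoRNPs direct its chemical modification, and assembly factors fold, cleave and package it with ribosomal proteins into a small and a large subunit. Growing cancer cells depend on this pathway, and the transcription factor MYC is a textbook activator of its genes, binding with its partner MAX to E-box sequences near their start sites.

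The canonical E-box, CACGTG, was therefore looked up in promoter windows from RefSeq (GRCh38.p14). Each runs from 250 bases before to 50 bases after a transcript start, and a gene can have more than 1 window. At least 1 window could be matched for 35 members, and 17 of them (48.6%) held an E-box in any window. Of the 12026 genes that were tested for expression and had a window, 12.1% held the motif in any window. Counted by window and not by gene, 7.26% of all 35116 windows held it. CACGTG is its own reverse complement, so 1 search covers both strands, and no other motif was searched. A match describes the letters of a window and is not a measured binding site. The 9 stretches that follow are shown because they come from every role with a matched E-box and include 6 members whose expression is given below library by library. They read 5′ to 3′ on the strand of the gene, with the E-box in capitals.
RRP9: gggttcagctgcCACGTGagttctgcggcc
NOP10: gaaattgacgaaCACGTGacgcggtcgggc
UTP20: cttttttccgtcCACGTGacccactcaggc
DDX21: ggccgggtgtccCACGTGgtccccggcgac
FBL: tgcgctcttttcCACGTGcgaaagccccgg
PNO1: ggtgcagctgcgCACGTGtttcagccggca
NOP14: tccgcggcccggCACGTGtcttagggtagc
LTV1: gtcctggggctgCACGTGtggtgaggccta
GNL3: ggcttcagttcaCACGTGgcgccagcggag

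In RRP9, a protein of the U3 snoRNP, the stretch is chr3:51941892-51941921 on the minus strand and the motif begins 5 bases before the start of the window's transcript. In NOP10 it is chr15:34343130-34343159 on the minus strand, with the motif 11 bases before the start. In UTP20 it is chr12:101280083-101280112 on the plus strand, with the motif 10 bases before the start. In DDX21 it is chr10:68956604-68956633 on the plus strand, with the motif 31 bases before the start. The other 5 motifs lie in the first bases of the transcript. They begin at base 7 of FBL (chr19:39846356-39846385, minus strand) and of GNL3 (chr3:52686026-52686055, plus strand), base 10 of PNO1 (chr2:68157885-68157914, plus strand), base 16 of NOP14 (chr4:2963374-2963403, minus strand) and base 29 of LTV1 (chr6:143843354-143843383, plus strand), counted from 1 at the start. Over the 17 members, 19 motifs were found, of which 13 lay within the 50 bases after the start and 6 before it.

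Depth ranged from 47620696 to 74061121 total counts per library, and each member had at least 433 counts in every library. The targeted gene was examined first. MUC1 was at 88.2, 90.2 and 79.6 CPM (counts relative to the library total, adjusted by edgeR's TMM factors) in DOX-negative libraries 1, 2 and 3 and at 36.7, 37.2 and 29.9 CPM in DOX-positive libraries 1, 2 and 3. Its fold change was -1.32 on the log2 scale (SE 0.096, adjusted p = 0.00017), so it was lower with DOX, which induces the shRNA against it. For sums over marker lists, CPM were taken from the library totals without TMM factors. Neuroendocrine markers were all present, with a summed level of 1678 to 1889 CPM in DOX-negative and 1387 to 1733 CPM in DOX-positive libraries. Of these markers, 2 of 8 were called lower (INSM1 and NCAM1). The luminal marker KLK3 was at 0 in every library. Of 7 luminal markers 3 were tested and 1 was called higher (ACP3, listed as ACPP), and the list summed to 6.47 to 7.83 CPM without and 8.18 to 8.95 CPM with DOX. Of 8 endothelial or immune markers, 3 were tested and all 3 were called higher (VWF, CDH5 and CD68). Their list summed to 4.29 to 5.97 CPM in DOX-negative and 8.30 to 10.1 CPM in DOX-positive libraries, with CD3E at 0. Of 10 fibroblast markers, 4 were tested and 2 were called higher (COL1A1 and LUM), COL3A1 and THY1 were at 0, and the list summed to 25.7 to 31.2 and 24.0 to 28.2 CPM. The part of these marker changes in the results for ribosome biogenesis genes was not tested.

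Silencing MUC1-C was not accompanied by a called change in any of the 43 members. All 43 members passed the filter on low counts, and 0 were called at an adjusted p under 0.05 by edgeR's quasi-likelihood test, whereas 829 of all 17026 genes tested (4.87%) were called. Called genes were higher for 2.91% and lower for 1.96% of all genes. At an unadjusted p under 0.05 the members again gave 0 genes, where 21.1% of all genes passed, and DESeq2 likewise called 0 members with 0 at an unadjusted p under 0.05. Some other fits passed a few members at that unadjusted level, as given below. The smallest adjusted p among the members was 0.25, for NOP14. In bulk RNA, fewer cells of a type and less RNA per cell cannot be told apart, and CPM give each transcript's share of a library, so a change in total RNA per cell is not measured.

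The changes were small as well as uncalled. Log2 fold changes ran from -0.16 (PNO1) to 0.19 (NOP14), 31 were positive and 12 negative, and their median was 0.057, beside 0.00034 over all genes tested. The median absolute change was 0.070 for the members and 0.13 for all genes. Standard errors lay between 0.072 and 0.16, with a median of 0.088 for the members and 0.10 for all genes. The 95% intervals reached from -0.36 at the lowest to 0.46 at the highest. For all 43 members the interval lay inside a 1.5-fold change in either direction, which held for 71.9% of all genes, and for 34 of 43 it lay inside 1.25-fold, which held for 38.3% of all genes. For no member were all 3 DOX-positive libraries above all 3 DOX-negative libraries (14.8% of all genes). For 3 members, RRN3, RRP12 and NIP7, all DOX-positive libraries were below (13.3% of all genes).

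**Figure D1:**
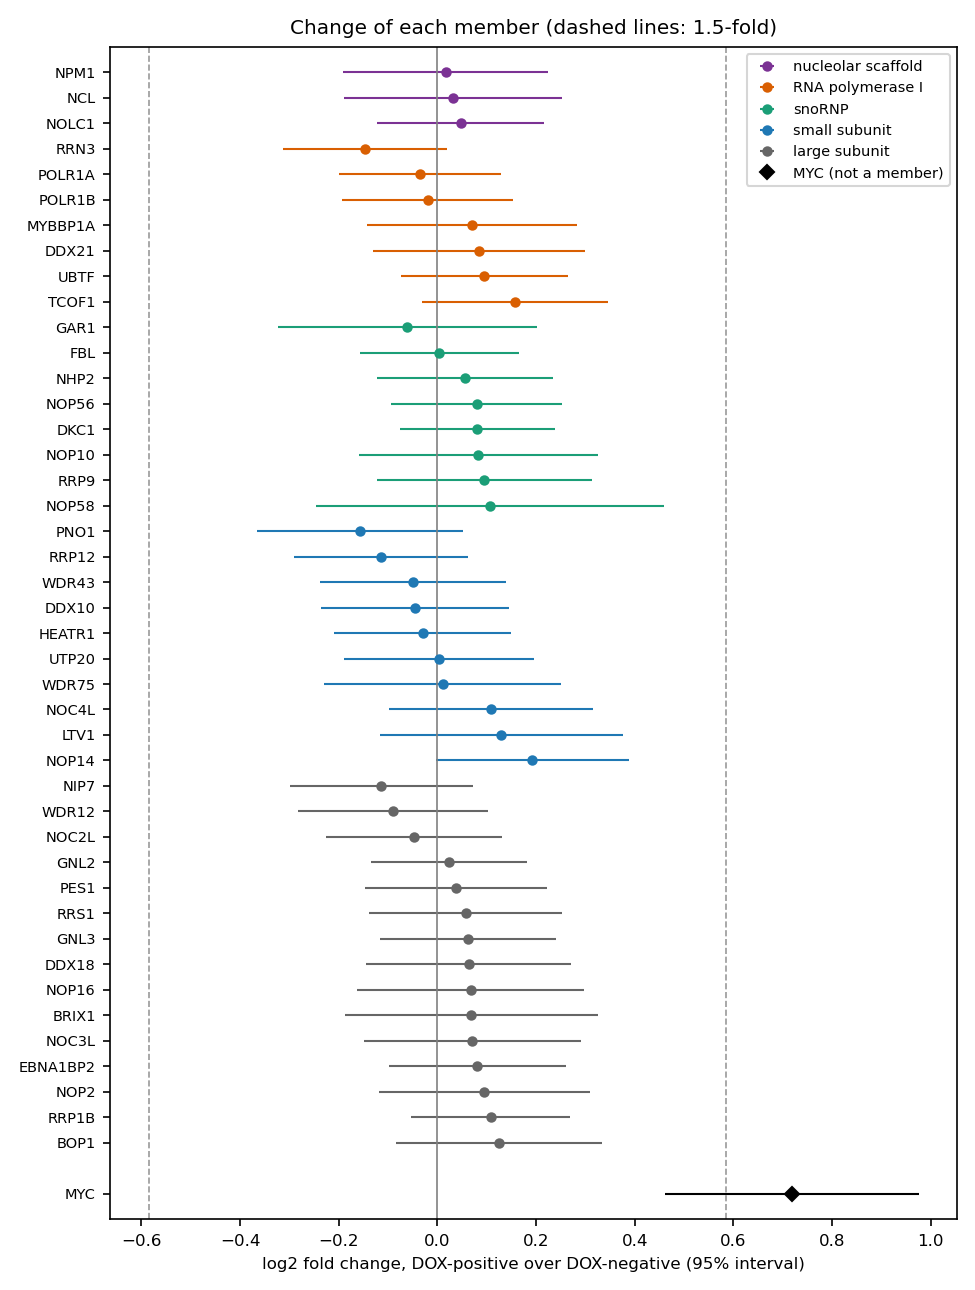
Log2 fold change (DOX-positive over DOX-negative, x axis) of each of the 43 members, coloured by role, with its 95% interval as a horizontal bar. MYC is drawn below for scale. Every member's interval crosses 0 and stays within the dashed lines at 1.5-fold, whereas the interval of MYC runs from 0.46 to 0.98.

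**Figure D2:**
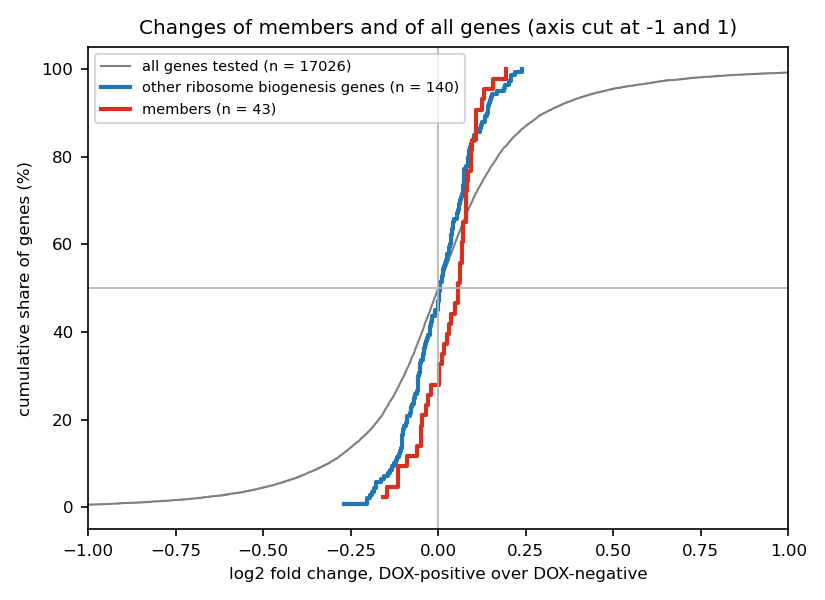
Cumulative share of genes (y axis, %) against log2 fold change (x axis, drawn from -1 to 1) for the 43 members, 140 other ribosome biogenesis genes and all 17026 genes tested. The curve of the members crosses 50% at 0.057 and is steeper than that of all genes, as their changes span only -0.16 to 0.19.

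The nucleolar scaffold group held the most abundant members per length, NPM1 and NCL. NCL encodes nucleolin, an RNA-binding protein of the nucleolus (chr2:231453531-231464484, RefSeq, GRCh38.p14, as for the genes that follow), and was at 968, 951 and 778 CPM in DOX-negative and 937, 816 and 1003 CPM in DOX-positive libraries. NPM1 encodes nucleophosmin, a chaperone that organises the outer nucleolus (chr5:171387116-171410900), and was at 678, 672 and 643 CPM without and 680.4, 575 and 761 CPM with DOX. NOLC1, a chaperone of snoRNPs, was at 122, 118 and 107 CPM without and 116, 116 and 127 CPM with DOX. In all 3 genes the highest value was in DOX-positive library 3, the DOX-positive range overlapped the DOX-negative one, and DOX-positive library 2 lay below library 3 by more than the difference of the group means. Log2 fold changes were 0.031 for NCL (SE 0.10, adjusted p = 0.90), 0.017 for NPM1 (SE 0.095, adjusted p = 0.95) and 0.047 for NOLC1 (SE 0.078, adjusted p = 0.78). RefSeq lists 50 pseudogenes of NPM1, so reads could be split between near-identical copies, and its value is uncertain to that extent. Over the whole set, 16 members have a listed pseudogene and 25 overlap another gene.

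The RNA polymerase I group held 4 positive and 3 negative fold changes, with a median of 0.070. UBTF, which binds ribosomal DNA and recruits the polymerase, was at 188, 191 and 163 CPM in DOX-negative and 190.0, 195 and 194 CPM in DOX-positive libraries. TCOF1, encoding the nucleolar factor treacle, was at 121, 115 and 96.5 CPM without DOX and 121, 126 and 124 CPM with DOX. In both genes DOX-negative library 3 was the lowest of the 6, and the other DOX-negative libraries reached to or near the DOX-positive values. The fold change was 0.095 for UBTF (SE 0.078, adjusted p = 0.53) and 0.16 for TCOF1 (SE 0.087, adjusted p = 0.33).

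RRN3 encodes the initiation factor that links RNA polymerase I to its promoter (chr16:15060022-15094335). It was at 50.9, 51.6 and 55.2 CPM without DOX and 48.6, 44.9 and 48.9 CPM with DOX, so all 3 DOX-positive libraries lay below all 3 DOX-negative ones. The difference did not pass the test (-0.15, SE 0.076, adjusted p = 0.30). RefSeq lists 4 pseudogenes of RRN3 and an overlap with PDXDC1, and the strand setting of the counting is not given in the sources used here. DDX21, an RNA helicase of pre-rRNA transcription and processing, was at 189, 188 and 172 CPM without DOX and 193, 166 and 222 CPM with DOX. The highest and the lowest of its 6 values were both DOX-positive, and its fold change was 0.084 (SE 0.099, adjusted p = 0.68). The 2 largest subunits of the polymerase, POLR1A and POLR1B, had fold changes of -0.035 (95% interval -0.20 to 0.13) and -0.020 (-0.19 to 0.15), and that of MYBBP1A, a nucleolar MYB-binding protein, was 0.070 (-0.14 to 0.28).

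Of the 8 snoRNP proteins, 7 had a positive fold change and the median was 0.080. NOP58, a core protein of the box C/D particles that guide ribose methylation (chr2:202265763-202303661), was at 87.7, 89.0 and 68.7 CPM in DOX-negative and 89.9, 67.7 and 107 CPM in DOX-positive libraries. The spread within each group was larger than the difference between the groups, and NOP58 had the largest SE of all members (0.11, SE 0.16, adjusted p = 0.76). RRP9 was at 32.0, 29.6 and 28.1 CPM without and 28.1, 35.9 and 32.0 CPM with DOX. NHP2 and NOP10 belong to the box H/ACA particles that guide pseudouridylation. NHP2 was at 66.9, 65.6 and 61.3 CPM in DOX-negative and 62.1, 73.5 and 66.0 CPM in DOX-positive libraries. NOP10 was at 14.0, 13.9 and 10.8 CPM without DOX and 13.9, 14.3 and 12.9 CPM with DOX. The groups overlapped for all 3 genes. Fold changes were 0.095 for RRP9 (SE 0.10, adjusted p = 0.64), 0.055 for NHP2 (SE 0.082, adjusted p = 0.75) and 0.083 for NOP10 (SE 0.11, adjusted p = 0.72).

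The remaining snoRNP proteins covered both catalytic subunits. FBL, the methyltransferase fibrillarin, had a fold change of 0.0037 (95% interval -0.16 to 0.17), and DKC1, the pseudouridine synthase dyskerin, one of 0.081 (-0.077 to 0.24). NOP56, the partner of NOP58, was at 0.079 (-0.095 to 0.25), and GAR1, the only negative value of the group, at -0.062 (-0.32 to 0.20). In RefSeq, 22 snoRNAs with a row in the count table lie within NCL, GNL3, NOP56, NOP58, DKC1 and WDR43. Of these 8 passed the count filter, at a mean of 9.67 to 35.0 counts, and 0 were called. At an unadjusted p under 0.05 there were 2 of the 8, where 21.1% of all genes passed. They were SNORA75 in NCL (-0.82) and SNORD70B in NOP58 (-0.90), named after their values were seen.

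The small-subunit factors were evenly split, with 5 positive and 5 negative fold changes and a median of -0.013. The group held both extremes of the whole set. NOP14, a component of the small-subunit processome (chr4:2937936-2963406), was at 67.2, 62.8 and 53.7 CPM in DOX-negative and 66.2, 70.4 and 73.5 CPM in DOX-positive libraries. DOX-negative library 1 exceeded DOX-positive library 1, and DOX-negative library 3 was well below the rest. The fold change was 0.19 (95% interval -0.0038 to 0.39, adjusted p = 0.25). NOP14 overlaps its antisense gene NOP14-AS1. The library kit was stranded per the labels, but the strand setting of the counting is not given. If strand was not used, the reads of both genes cannot be told apart.

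PNO1, an assembly factor of the small subunit (chr2:68157888-68176238), was at 21.7, 22.5 and 20.0 CPM without DOX and 19.2, 17.3 and 21.1 CPM with DOX. DOX-positive library 3 lay within the DOX-negative range, and the other DOX-positive libraries below it (-0.16, 95% interval -0.36 to 0.053, adjusted p = 0.38). LTV1, which acts in late maturation of the small subunit, was at 28.1, 27.8 and 23.5 CPM without DOX and 29.7, 24.5 and 32.6 CPM with DOX, and the groups overlapped (0.13, SE 0.11, adjusted p = 0.56). RRP12, a factor of subunit export, had a fold change of -0.11 (-0.29 to 0.063) with no overlap between the groups, at 28.2, 27.1 and 26.9 CPM without and 23.9, 26.5 and 25.6 CPM with DOX. Processome components HEATR1, UTP20, WDR43 and WDR75 lay between -0.050 (WDR43) and 0.010 (WDR75), and DDX10, an RNA helicase, and NOC4L, the NOP14 partner, were at -0.045 and 0.11.

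Of the 15 large-subunit factors, 12 had a positive fold change, with a median of 0.063. NOC2L was the most abundant of them per length. It encodes a nucleolar factor that also binds histones (chr1:944203-959256), and was at 178, 176 and 168 CPM in DOX-negative and 156, 188 and 161 CPM in DOX-positive libraries. Of the 3 DOX-positive values, 2 lay below the DOX-negative range and 1 above it (-0.048, SE 0.082, adjusted p = 0.79). BOP1, which forms a trimer with PES1 and WDR12, was at 51.5, 50.7 and 46.6 CPM without DOX and 48.8, 62.1 and 51.6 CPM with DOX, where DOX-positive library 2 was far above the other 5 (0.13, SE 0.096, adjusted p = 0.50). Its partners had fold changes of 0.037 (PES1, 95% interval -0.15 to 0.22) and -0.090 (WDR12, -0.28 to 0.10).

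RRP1B, a nucleolar regulatory partner of a protein phosphatase, was at 118, 121 and 114 CPM without and 119.8, 124 and 136 CPM with DOX (0.11, SE 0.074, adjusted p = 0.44), and only DOX-positive libraries 2 and 3 exceeded every DOX-negative library. NIP7, a factor of pre-rRNA processing, was at 16.0, 14.9 and 15.3 CPM in DOX-negative and 14.4, 13.6 and 14.6 CPM in DOX-positive libraries, without overlap (-0.11, SE 0.085, adjusted p = 0.49). The other 9 large-subunit genes ranged from 0.024 (GNL2) to 0.095 (NOP2). They included the nucleolar GTPases GNL2 and GNL3 (nucleostemin), the RNA methyltransferase NOP2 (0.095), and the assembly factors BRIX1 (0.069), EBNA1BP2 (0.081), RRS1 (0.057), NOP16 (0.068) and NOC3L (0.071), with the helicase DDX18 at 0.063.

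The excess of positive signs rested on single libraries. On the log2 scale, each member's CPM was set against its own mean over the 6 libraries, and the median deviation of the 43 members was 0.051, 0.0067 and -0.10 in DOX-negative libraries 1, 2 and 3 and -4.9e-05, -0.016 and 0.089 in DOX-positive libraries 1, 2 and 3. The number of members above their own mean was 38, 24 and 7 without DOX and 20, 20 and 35 with DOX. DOX-negative library 3 and DOX-positive library 3 thus stood at opposite ends, and the other 4 libraries lay between them. Without DOX-negative library 3 the median fold change of the members was -0.0031, with 20 positive and 23 negative. In the absence of DOX-positive library 3 it was -0.0044, again with 20 positive and 23 negative, and without any other single library it stayed between 0.062 and 0.082. The pooled SD of the library medians within groups was 0.068. It describes single libraries and is not a standard error of the median fold change of 0.057. All members together took 0.393% to 0.466% of a library's total as adjusted by the TMM factors.

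**Figure D3:**
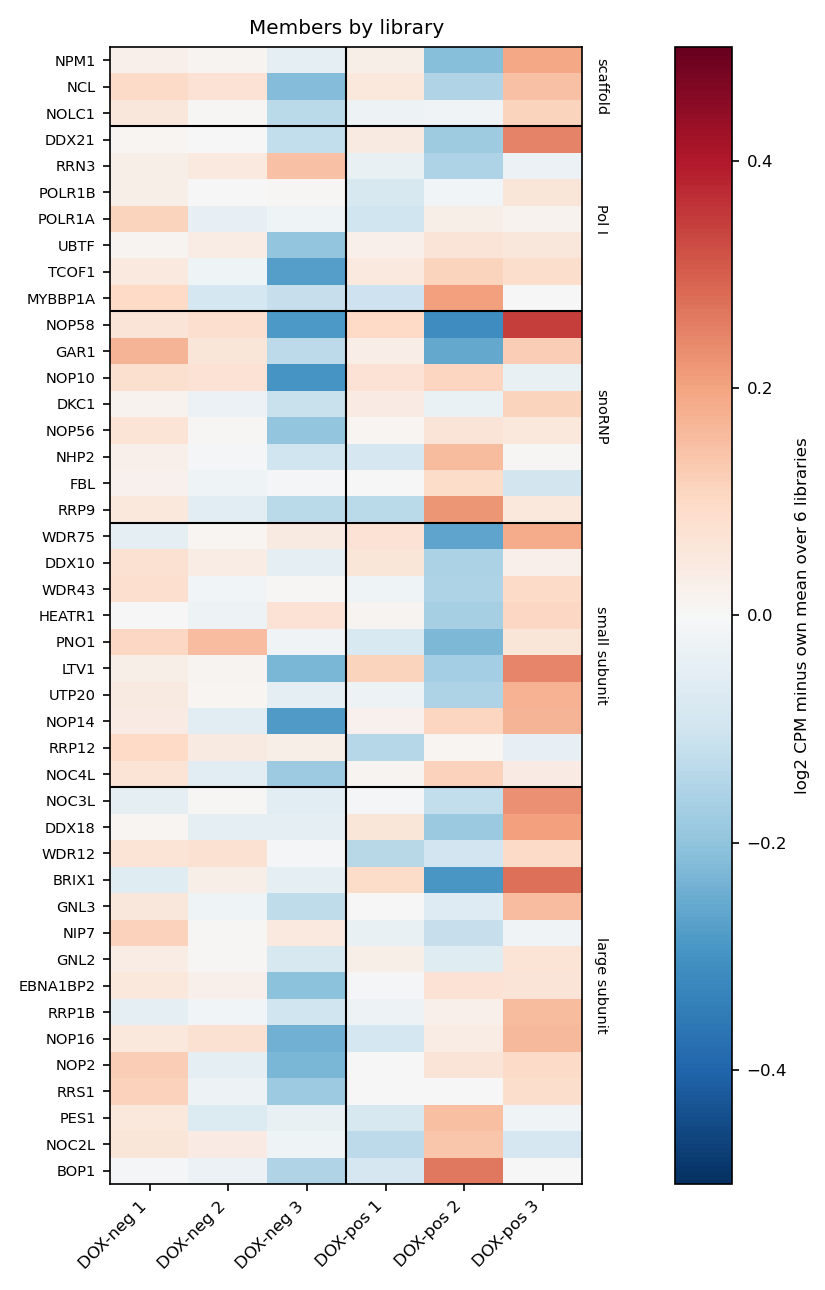
Log2 CPM of each member minus its own mean over the 6 libraries (colour, red above and blue below), with libraries as columns and members as rows, grouped by role and sorted by GC content within a role. DOX-negative library 3 is mostly blue (36 of 43 below their mean), DOX-positive library 3 is mostly red (35 of 43 above), and DOX-positive library 2 turns from blue to red down the longer groups.

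Within the DOX-positive group the members separated by base composition. GC content, taken over the longest coding transcript in GENCODE release 29, ran from 37.7% (NOC3L) to 65.2% (BOP1). In DOX-positive library 2, the deviation of the 43 members from their own mean had a Spearman correlation of 0.87 with GC content, and over 15830 genes tested the value was 0.64. In DOX-positive library 3 it was -0.59 over the members and -0.29 over all genes. In the other 4 libraries the members gave values between -0.42 and 0.22. These correlations describe genes within 1 library, which share its preparation and depth, and genes are not independent replicates.

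The direct difference between DOX-positive libraries 3 and 2 followed the same order (Spearman -0.86, Pearson -0.82, 43 members). It is made of the same values as the deviations above, so it is no separate evidence. Each deviation is taken from a mean that includes library 2. The trend of library 2 alone therefore pulls the other libraries the opposite way. Of the 18 members with under 45% GC, all 18 were higher in library 3, by a median of 0.31 on the log2 scale, with NOP58 the furthest (0.66). The 12 members from 45% to 55% GC had a median difference of 0.13. Of the 13 members with at least 55% GC, 11 were higher in library 2 and the median was -0.16, with BOP1 at -0.27. Both libraries belong to the DOX-positive group.

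**Figure D4:**
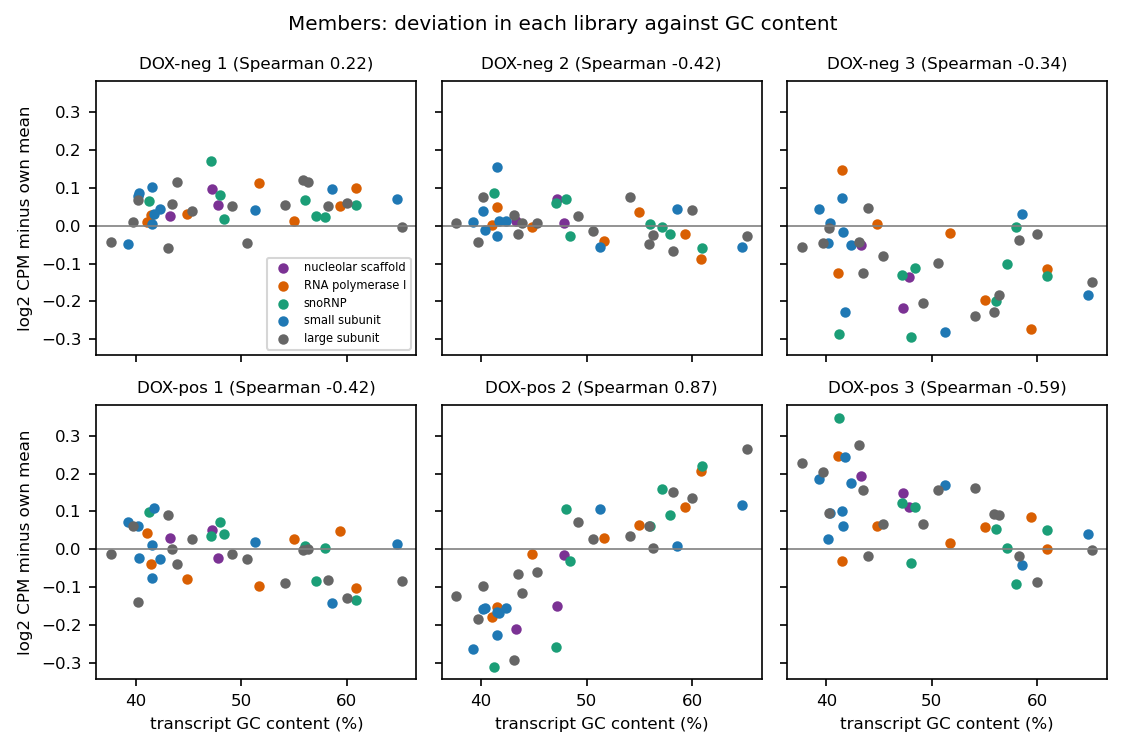
Deviation of each member's log2 CPM from its own mean (y axis) against the GC content of its transcript in percent (x axis), 1 panel per library and 1 point per member, coloured by role. Points climb with GC in DOX-positive library 2 (Spearman 0.87) and descend in DOX-positive library 3 (-0.59).

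When trends in GC content and length were removed from each library, an alternative chosen after this pattern was seen, 0 of 43 members were called, beside 14.0% of the 15830 genes that could be fitted. At an unadjusted p under 0.05 there were 3 members (29.9% of all genes): RRP12 (-0.16, SE 0.059, adjusted p = 0.10), RRN3 (-0.12, adjusted p = 0.13) and NOP14 (0.18, adjusted p = 0.15). RRP12 and RRN3 were lower and NOP14 higher, as before. The median fold change was 0.029 and the median SE of the members 0.063. All 43 intervals were again inside 1.5-fold, and 39 were inside 1.25-fold. When DOX-positive library 2 alone was left out, 0 members were called (4.80% of all genes) and 5 passed an unadjusted p under 0.05 (24.0% of all genes). Of these, LTV1 (0.24), BRIX1 (0.21), DDX21 (0.19) and DDX18 (0.16), all under 45% GC, were higher and NOC2L (-0.13), at 60.0% GC, was lower. Their adjusted p were 0.10 to 0.20.

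Levels were compared between genes in TPM, which the authors divided by gene length. Averaged over the 6 libraries, NPM1 (208 TPM) and NCL (191 TPM) led, followed by NHP2 (52.6 TPM), FBL (37.7 TPM), NOP56 (36.1 TPM) and NOC2L (34.5 TPM). At the low end were NOC3L (2.64 TPM), POLR1B (2.75 TPM), RRP12 (3.27 TPM), PNO1 (3.53 TPM) and RRN3 (3.57 TPM). A single gene's TPM moved by library, for example from 137 to 241 TPM for NCL, and protein-coding genes together held only 13.2% to 19.6% of a library's TPM. Neighbours in the order were therefore compared as ratios within a library.

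By deposited TPM, genes whose products act in 1 particle did not have equal levels. The lengths used by the authors are not given in the sources used here. An error in a length would recur in every library, so an order seen in all of them does not guard against it. In the box H/ACA particles, NHP2 was above DKC1 in 6 of 6 libraries, by 2.41 to 3.01 times, and DKC1 was above GAR1 in 6 of 6, by 3.68 to 4.78 times. By mean CPM, which are not divided by length, NHP2 was below DKC1, at 64.6 against 160 CPM without DOX and 67.2 against 170 CPM with DOX. The order of NHP2 and DKC1 thus rests on the lengths. The other pairs ordered in this paragraph kept their order by mean CPM. NOP10 and DKC1 could not be ordered, with ratios of 0.905 to 1.13. In the box C/D particles, NOP56 was above NOP58 in 6 of 6 libraries, by 1.22 to 1.94 times, whereas FBL and NOP56 were close (0.951 to 1.20). In the trimer of large-subunit assembly, BOP1 was above PES1 by 1.33 to 1.55 times and PES1 above WDR12 by 1.15 to 1.50 times, each in 6 of 6 libraries. POLR1A was above POLR1B by 1.38 to 1.51 times. For this polymerase pair the ratio was 1.43 ± 0.067 without DOX and 1.42 ± 0.044 with DOX (SD, n = 3). The BOP1 to PES1 ratio was 1.39 ± 0.074 and 1.48 ± 0.064, and the DKC1 to GAR1 ratio 3.89 ± 0.23 and 4.32 ± 0.41, with overlapping ranges of the mean ± SD in each case.

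**Figure D5:**
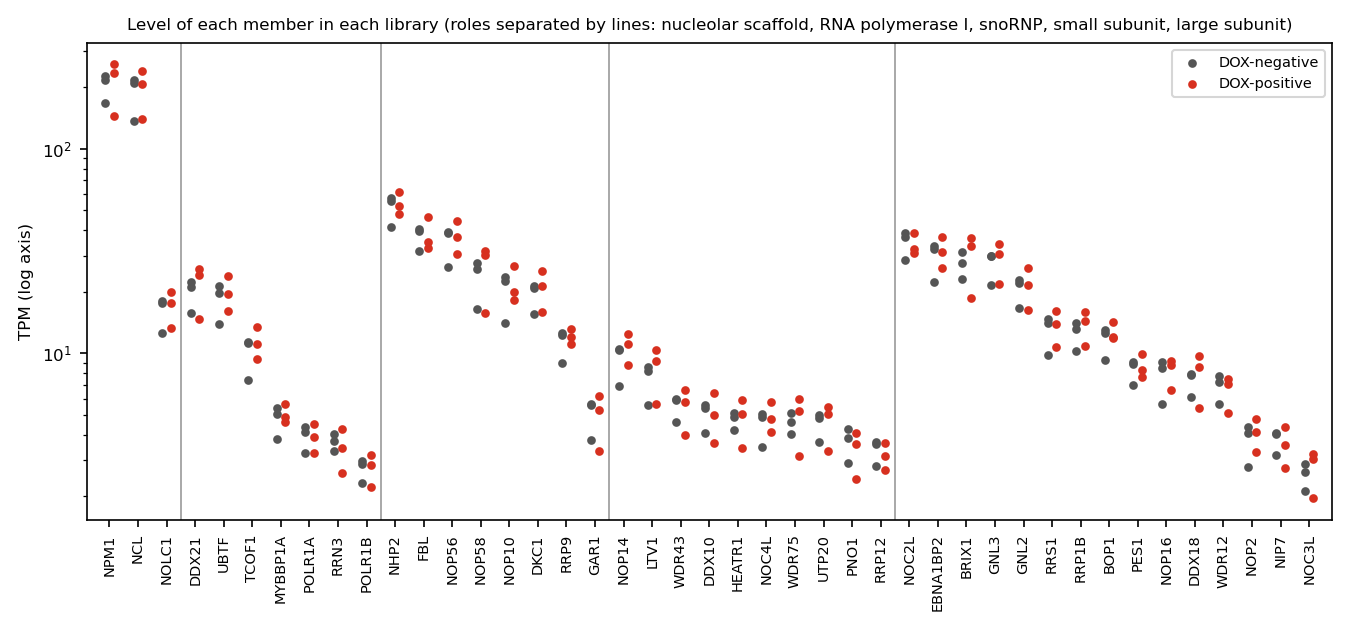
TPM of each member (log axis) in each of the 3 DOX-negative (grey) and 3 DOX-positive (red) libraries, 1 point per library, ordered by mean within each role. NPM1 and NCL stand at 208 and 191 TPM on average, all others lie between 2.64 and 52.6 TPM, and grey and red points overlap for each gene.

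MYC, which is no member, was set beside the set because its product binds E-boxes. MYC was at 22.7, 20.5 and 17.7 CPM in DOX-negative and 28.5, 34.4 and 37.5 CPM in DOX-positive libraries. The groups did not overlap and the rise passed the test (0.72, SE 0.12, adjusted p = 0.0091). The call was lost in 4 of 17 alternatives, which were the 3 fits on the deposited TPM and the one without DOX-negative library 3 (0.63), and adjusted p ranged from 2.0e-06 to 0.45 over all 17. MAX (0.23, adjusted p = 0.13) and the antagonists MXD1 (0.30, adjusted p = 0.13) and MNT (0.19, adjusted p = 0.23) did not pass, nor did MYCN (0.11, adjusted p = 0.73). For MAX, MXD1 and MNT all DOX-positive libraries lay above all DOX-negative ones (14.8% of all genes). Their unadjusted p in the same test was under 0.05 (21.1% of all genes). For MYCN the groups overlapped. The study reported the other direction for MYC: by quantitative PCR, its transcripts and those of MYCN depended on MUC1-C in H660 cells. It also reported that MYC protein in chromatin depended on MUC1-C, and that MYC, TCF4 and β-catenin were lower in immunoblots of lysates from silenced H660 cells. In its RNA-seq of silenced H660 cells, the study reported a lower signature of MYC targets. The counts used here were deposited with that study, so the signature is not separate evidence from them. The reason for the difference from the MYC counts given here was not tested.

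As no member was called, none of those with an E-box in any window was, which adds no separate result. The 17 members with the motif had fold changes from -0.16 to 0.19 with a median of 0.070, and 14 were positive. The 18 members whose windows lacked it ranged from -0.15 to 0.11 with a median of 0.014, and 10 were positive. Over all genes tested the medians were 0.017 with and 0.0052 without the motif. Of the stretches printed above, those of NOP14 and PNO1 belong to the most positive and the most negative fold change of the whole set. The difference between members with and without the motif is a description, and no test was made of it.

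The rest of the pathway was read from a hand-written list of 141 further ribosome biogenesis genes, of which 140 were tested. It gave 0 called genes and 4 at an unadjusted p under 0.05, where 21.1% of all genes passed, with 74 positive and 66 negative fold changes and a median of 0.0046. The count of 4 rose to 29 of 140 without DOX-positive library 2 and to 26 of 138 with GC content and length trends removed, where 24.0% and 29.9% of all genes passed. In these fits 2 and 3 of the genes were called. The 4 were MDN1, an ATPase of large-subunit maturation (-0.20), TTF1, the termination factor of RNA polymerase I (-0.27), POLR1E, a subunit of that polymerase (0.22), and SHQ1, a chaperone of dyskerin (-0.19), all named after their values were seen. By role, the medians were -0.030 for 15 genes of RNA polymerase I, -0.012 for 10 snoRNP genes, 0.0041 for 46 small-subunit genes, 0.031 for 49 large-subunit genes and 0.0044 for 15 genes of the RNA exosome, which trims the precursors.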

How the data were processed

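The deposited files hold raw counts of reads for each gene symbol, made by the authors from STAR alignments, and TPM, which are counts per length scaled to a common total. GRCh38/hg38 and DESeq2 are also named in the submitters' processing notes. The counter, the annotation, the strand setting and the tool versions of the authors are not given in the sources used here. Libraries were prepared from total RNA with a stranded mRNA kit, per the labels, and groups came from the sample titles. Cells were cultured in triplicate. P-values measure the spread between these libraries.

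Counts were fitted with edgeR 4.0.16 in R 4.3.3 (filterByExpr, TMM factors, robust quasi-likelihood test, no covariate), p was adjusted by Benjamini-Hochberg over all 17026 genes tested, with calls at adjusted p under 0.05. Alternatives used DESeq2 1.42.0 and limma 3.58.1 (limma-trend on log2(TPM + 1) or log2(TPM + 0.1)). The code was tested on simulated data. Library replicates of a group differed by more than sampling noise. No pairing by replicate number was visible: same-numbered deviations correlated at -0.54, 0.019 and -0.10. Such correlations also carry effects of single libraries, so they cannot show whether same-numbered cultures were handled together. Intervals cover the fitted model's error only.

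Values per library are given for the member with the highest mean TPM and the 3 with the largest absolute fold change in each of 5 roles, and for MUC1 and MYC. RRP12 was added after its values were seen. The members and the lists were chosen with earlier results of these data known. Pseudogenes and overlaps came from RefSeq (GRCh38.p14).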

Additional observations from a re-analysis of the deposited data

How the results depend on the processing

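Under 17 alternatives, 15 planned and 2 added after seeing the data, 0 of 43 members were called in each. The median fold change of the members was 0.029 to 0.077 in the 11 alternatives with all 6 libraries and turned negative only without DOX-negative replicate 3 (-0.0031) or, separately, DOX-positive replicate 3 (-0.0044). With a replicate block the median was 0.053, with 0 members called and 998 of all genes called. The sample titles share only a number, and 0 of 6 libraries correlated best with the library of their own number. The block changed no call on the members, MUC1 or MYC.

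The count of called genes over all genes depended on the processing more than any result on the members. It was 829 as reported, 1355 with DESeq2, 31 and 35 on deposited TPM with pseudocounts of 1 and 0.1, 11 on TPM without a filter, 472 where TPM were rescaled to protein-coding genes, and 2215 with GC content and length trends removed. Among called genes 59.8% were higher as reported and 45.2%, 45.7% and 81.8% in the 3 fits on deposited TPM. Without 1 library the count ran from 58 (DOX-negative replicate 3) to 1035 (DOX-positive replicate 1), and was 127 in the absence of DOX-negative replicate 2 and 375 in that of DOX-positive replicate 3. MUC1 was at -1.22 with an adjusted p of 0.11 on unfiltered TPM. The cause was not tested.

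Of the other ribosome biogenesis genes, 3 were called with GC content and length trends removed (TTF1 -0.27, RUVBL2 -0.19 and PWP2 -0.20), and 0 to 2 without 1 library, the 2 being SBDS (0.37) and EXOSC9 (0.32) without DOX-positive replicate 2. Of the 18 members given by library, 197 of 198 values with all libraries kept their sign, the exception being NPM1 (-0.0042 on rescaled TPM). Without 1 library 97 of 108 kept it. Ranges there were -0.068 to 0.11 for NCL, -0.082 to 0.12 for NPM1, -0.012 to 0.088 for NOLC1, -0.054 to 0.27 for NOP58, -0.033 to 0.15 for NOP10, -0.13 to 0.0040 for NOC2L, -0.011 to 0.11 for NHP2 and -0.026 to 0.19 for DDX21. The other 10 kept their sign in each, and their sizes moved too: 0.10 to 0.26 for NOP14, 0.063 to 0.23 for TCOF1, 0.035 to 0.24 for LTV1, 0.020 to 0.14 for UBTF, 0.019 to 0.20 for BOP1, 0.0068 to 0.18 for RRP9, 0.054 to 0.15 for RRP1B, -0.23 to -0.086 for PNO1, -0.17 to -0.11 for RRN3 and -0.14 to -0.083 for NIP7.

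With 3 libraries per group the median SE of a member was 0.088, and for 34 of 43 members the 95% interval lay inside 1.25-fold.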
